A study of Mus musculus with 6 samples.

Results

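Glutathione transferases attach the tripeptide glutathione to reactive compounds, and 9 genes of this family were followed in mouse 3T3-L1 preadipocytes grown with or without human stem cells above them. The members were chosen by symbol (Gstm1, Gstm2, Gsta4, Gstp1, Gstt1, Gsto1, Gstk1, Mgst1 and Mgst3), and all 9 were found among the 21436 genes of the deposited table. 3T3-L1 is an established embryonic fibroblast line that can be induced to form adipocytes, and its genotype was given as wild type in both groups. In the alone group (3 libraries) the cells lay at the bottom of a Transwell with nothing above them. In the co-culture group (3 libraries) human umbilical cord mesenchymal stem cells occupied the upper chamber, behind a membrane with 0.4 µm pores. Both groups had spent 72 h in adipogenic medium with 10% serum, 10 mg/L insulin, 2 µM of the PPARγ agonist rosiglitazone, 1 µM of the glucocorticoid dexamethasone and 0.5 mM of the phosphodiesterase inhibitor IBMX. Expression was given as FPKM, fragments per kilobase scaled by library size, a level that can be compared between genes because it is per length.

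The cytosolic transferases fall into classes named after Greek letters, and the class is read from the letter after Gst: mu (Gstm1, Gstm2), alpha (Gsta4), theta (Gstt1), pi (Gstp1) and omega (Gsto1). Gstk1, of the kappa class, is found in mitochondria and peroxisomes. Mgst1 and Mgst3 belong to a separate family of membrane-bound enzymes. In adipose tissue the family is best known for clearing the reactive aldehydes that arise when lipids are oxidised. Many of its genes are targets of NRF2, the transcription factor encoded by Nfe2l2 that responds to electrophiles and oxidants.

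The library totals recovered from the values were 29603755 to 38357563 reads, the lowest in co-culture library 1 (libraries carry the replicate numbers of the labels). The labels do not tell whether the libraries are of separate cultures, and the p-values reflect a spread that may be only technical. All 7 preadipocyte or fibroblast markers checked (such as Pdgfra and Thy1) had a mean of at least 1 FPKM, and their summed level was 1445 to 1489 FPKM alone and 1542 to 1570 FPKM in co-culture. Of 6 adipocyte markers 5, Adipoq and Plin1 among them, had at most 10 reads in every library, and the summed level of the 6, nearly all of it Fabp4, was 50.2 to 56.2 FPKM alone and 57.4 to 58.8 FPKM in co-culture. The 4 blood genes summed to 16.5 to 30.1 FPKM alone and 3.71 to 17.8 FPKM in co-culture. The part of these differences in the results on the transferases was not tested. In bulk RNA, fewer cells that express a gene and less of its RNA per cell cannot be told apart.

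Measured levels spanned a wide range within the family. In the alone group Gstp1 was highest (132 FPKM), followed by Gsto1 (91.1), Gstm1 (74.9), Gstm2 (61.5), Mgst1 (56.3), Gsta4 (24.9), Mgst3 (13.4) and Gstt1 (2.35), with Gstk1 at 0.0193 FPKM. Among neighbours in that order only Gstm2 and Mgst1 had ranges that overlapped. In co-culture Gstm1 (92.4 FPKM) stood above Gsto1 (72.7), so these genes had exchanged places, and the ranges of Gsto1 and Gstm2 and those of Gstm2 and Mgst1 overlapped. By mean FPKM over the 6 libraries, Gstp1 had rank 388 and Gstm1 rank 672 of the 10055 tested genes, while Gstt1 had rank 8401.

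Most tested members were higher in co-culture and 1 was lower. Tests were made with limma on log2(FPKM + 1) over 10055 genes whose mean reached 1 FPKM, and 8 of the 9 members passed that filter. Of these 8, 5 were called higher in co-culture (Gstm1, Gsta4, Gstt1, Mgst1 and Mgst3) and 1 lower (Gsto1), at a Benjamini-Hochberg adjusted p below 0.05. Over all tested genes 13.9% were called higher and 17.9% lower, 31.8% in either direction. The members, and the lists below, were chosen with earlier results of these data known, so such shares are a description only. The same 6 members had groups that did not overlap, against 46.1% of all tested genes (21.3% higher and 24.8% lower). The median log2 change of the 8 tested members was 0.21, and that of all tested genes was −0.0037. Every change was small, and the called members had a median size of 0.25 on the log2 scale, beside 0.23 for all called genes.

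**Figure D1:**
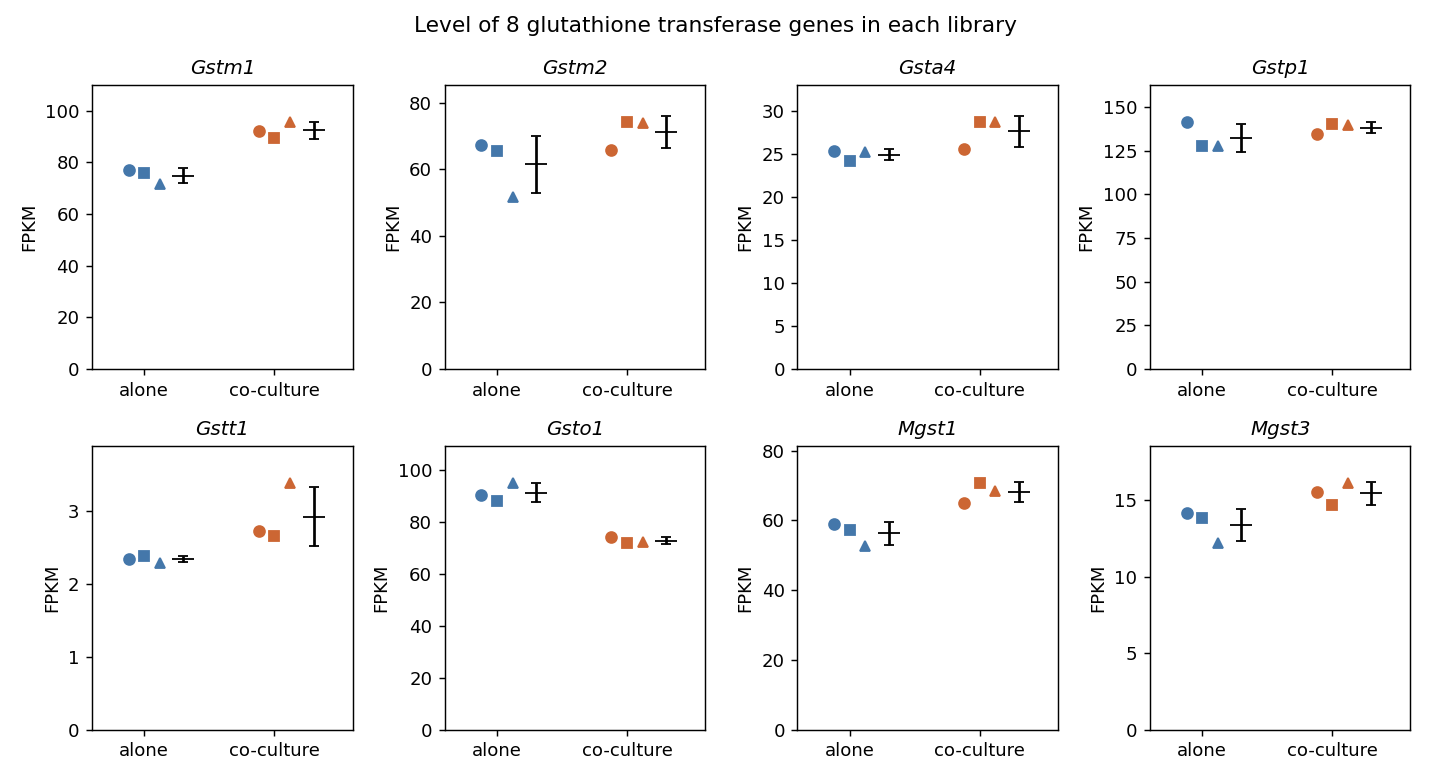
FPKM of the 8 tested members in each library, with every vertical axis starting at 0; circles, squares and triangles are libraries 1, 2 and 3, blue for alone and orange for co-culture, and the black bars are the mean ± SD (n = 3). Gstm1 and Mgst1 in co-culture lay above all alone libraries and Gsto1 below them, while the groups overlapped for Gstm2 and Gstp1.

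The mu class was led by Gstm1, whose enzyme conjugates a broad set of electrophiles. Gstm1 was at 77.2, 75.8 and 71.7 FPKM in alone libraries 1 to 3 and at 92.2, 89.3 and 95.7 FPKM in co-culture libraries 1 to 3. All co-culture libraries were above all alone libraries. The means were 74.9 ± 2.86 and 92.4 ± 3.19 FPKM (SD, n = 3), 1.23-fold higher in co-culture (log2 change 0.30, SE 0.040, limma adjusted p = 0.000392), from 3745 to 4900 reads a library. Its neighbour Gstm2 was at 67.4, 65.6 and 51.6 FPKM alone and at 65.8, 74.2 and 73.8 FPKM in co-culture. Here co-culture library 1 fell among the alone libraries and alone library 3 was well below the others. The means of Gstm2 were 61.5 ± 8.62 and 71.3 ± 4.74 FPKM, and its log2 change of 0.22 (95% confidence interval 0.024 to 0.41) did not pass the test (limma adjusted p = 0.0820).

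The ratio of Gstm1 to Gstm2 was 1.15, 1.16 and 1.39 in alone libraries 1 to 3 and 1.40, 1.20 and 1.30 in co-culture libraries 1 to 3. The groups overlapped, and the ratio did not differ by the two-sided exact permutation test (p = 0.5, adjusted p = 0.5 over 3 ratios). With 3 libraries against 3 that test cannot go below 0.1.

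Gsta4, the alpha-class enzyme specialised in hydroxynonenal, an aldehyde of lipid peroxidation, was at 25.3, 24.2 and 25.2 FPKM alone and at 25.5, 28.6 and 28.7 FPKM in co-culture. Co-culture replicate 1 lay just above the alone libraries, and libraries 2 and 3 further up. The means were 24.9 ± 0.631 and 27.6 ± 1.81 FPKM (SD, n = 3), 1.11-fold higher (log2 change 0.14, SE 0.049, limma adjusted p = 0.0461). Gstt1, of the theta class that acts on small halogenated compounds, was the lowest of the tested members, with 88 to 138 reads a library. It was at 2.35, 2.39 and 2.30 FPKM alone and at 2.73, 2.66 and 3.40 FPKM in co-culture, where library 3 stood apart from the other 2. The means were 2.35 ± 0.0458 and 2.93 ± 0.405 FPKM, 1.25-fold higher (log2 change 0.23, SE 0.074, limma adjusted p = 0.0387).

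Gstp1, the pi-class enzyme and the most abundant member, was at 141, 127 and 128 FPKM alone and at 134, 140.0 and 139.5 FPKM in co-culture. Alone replicate 1 was the highest of the 6 and the groups overlapped. The means were 132 ± 7.95 and 138.0 ± 3.13 FPKM, and the log2 change of 0.063 (95% confidence interval −0.035 to 0.16) did not pass the test (limma adjusted p = 0.307).

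Gsto1 was the 1 member that fell. Its omega-class enzyme carries a cysteine in the active site and reduces mixed disulfides and dehydroascorbate, rather than mainly conjugating electrophiles. Gsto1 was at 90.4, 87.8 and 94.97 FPKM alone and at 74.3, 71.6 and 72.3 FPKM in co-culture. All co-culture libraries were below all alone libraries, and they spread less than the alone libraries did. The means were 91.1 ± 3.61 and 72.7 ± 1.36 FPKM (SD, n = 3), 1.25-fold lower in co-culture (log2 change −0.32, SE 0.038, limma adjusted p = 0.000171), from 2592 to 4295 reads a library. The ratio of Gsto1 to Gstp1 was 0.639, 0.689 and 0.744 alone and 0.553, 0.512 and 0.518 in co-culture, without overlap between the groups. That ratio does not depend on how libraries are scaled, and its two-sided exact permutation p of 0.1, the smallest possible, was 0.3 after adjustment over the 3 ratios.

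Both membrane-bound members rose. Their relative Mgst2, outside the 9 members, had means of 2.05 (alone) and 2.19 FPKM (co-culture) and was not called (limma adjusted p = 0.503). Mgst1, an abundant enzyme of the endoplasmic reticulum and the outer mitochondrial membrane, was at 59.0, 57.4 and 52.6 FPKM alone and at 65.0, 70.8 and 68.4 FPKM in co-culture. The lowest co-culture library was above the highest alone library. The means were 56.3 ± 3.35 and 68.1 ± 2.89 FPKM (SD, n = 3), 1.21-fold higher (log2 change 0.27, SE 0.048, limma adjusted p = 0.00210). Mgst3, which has transferase and peroxidase activity, was at 14.1, 13.8 and 12.2 FPKM alone and at 15.5, 14.7 and 16.1 FPKM in co-culture. The groups of Mgst3 did not overlap, but alone library 1 and co-culture library 2 were close. Its means were 13.4 ± 1.02 and 15.4 ± 0.743 FPKM, 1.15-fold higher (log2 change 0.19, SE 0.058, limma adjusted p = 0.0264). The ratio of Mgst1 to Mgst3 was 4.21 ± 0.0798 alone and 4.42 ± 0.355 in co-culture (SD, n = 3), with a two-sided exact permutation p of 0.5 (adjusted p = 0.5).

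Gstk1 was hardly detected. Its kappa-class protein is also known as a disulfide-forming chaperone that promotes the assembly of adiponectin, the adipocyte hormone encoded by Adipoq. Gstk1 had 1 read in each of alone libraries 2 and 3, and 0 reads in alone library 1 and in all 3 co-culture libraries. A count of 3 reads would correspond to 0.0841 to 0.109 FPKM, depending on the library, so both groups were below that limit and no fold is given. Such limits cover counting error only.

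Within the alone group, libraries 1 and 3 held most of the extremes. Alone replicate 1 had the highest value of its group for 6 of the 8 tested members, and alone library 3 had the lowest for 5 (Gstm1, Gstm2, Gstt1, Mgst1 and Mgst3) and the highest for Gsto1. In co-culture, library 3 had the highest value for 4 members and the lowest for none of the 8. Summed over the 9 members, the level was 477, 454 and 438 FPKM in alone libraries 1 to 3 and 475, 492 and 498 FPKM in co-culture libraries 1 to 3, so alone library 1 was above co-culture library 1. Gsto1 made up 19.98 ± 1.48% of that sum alone and 14.9 ± 0.621% in co-culture (SD, n = 3). Gstm1 made up 16.4 ± 0.254% and 18.9 ± 0.670%, and Gstp1 28.9 ± 0.807% and 28.3 ± 0.222%.

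Of the 6 calls, those on Gstm1, Gsto1 and Mgst1 held when each library was left out in turn and in 10 other settings, with adjusted p no higher than 0.0101, 0.00593 and 0.0326. The call on Gsta4 was lost without alone library 1 (adjusted p = 0.0581), alone library 2 (0.138), alone library 3 (0.0808), co-culture library 2 (0.142) or co-culture library 3 (0.161), and its p was 0.0105 to 0.161 over all 16 settings. That on Gstt1 was lost without alone library 1 (0.0724), alone library 2 (0.0763), alone library 3 (0.0954) or co-culture library 3 (0.138). The adjusted p of Gstt1 was 0.0318 to 0.161 over 15 settings, and its log2 change was 0.14 without co-culture library 3. The call on Mgst3 was lost without alone library 3 (0.0882), co-culture library 1 (0.0670) or co-culture library 3 (0.0991), with an adjusted p of 0.0190 to 0.121 over 16 settings. The 5 higher calls thus numbered 2 without alone library 3 or co-culture library 3. Without alone library 1, Gstm2 (adjusted p = 0.0396, range 0.0310 to 0.315) and Gstp1 (0.0244, range 0.0184 to 0.614) passed the test. The log2 change of Gstp1 was then 0.11, beside 0.038 without alone library 2 and 0.039 without alone library 3, and 0.13 with quantile normalization, where it was also called (adjusted p = 0.0184). Gstm2 had a log2 change of 0.097 without alone library 3. In every setting run, the 8 members kept the direction of their log2 change.

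**Figure D2:**
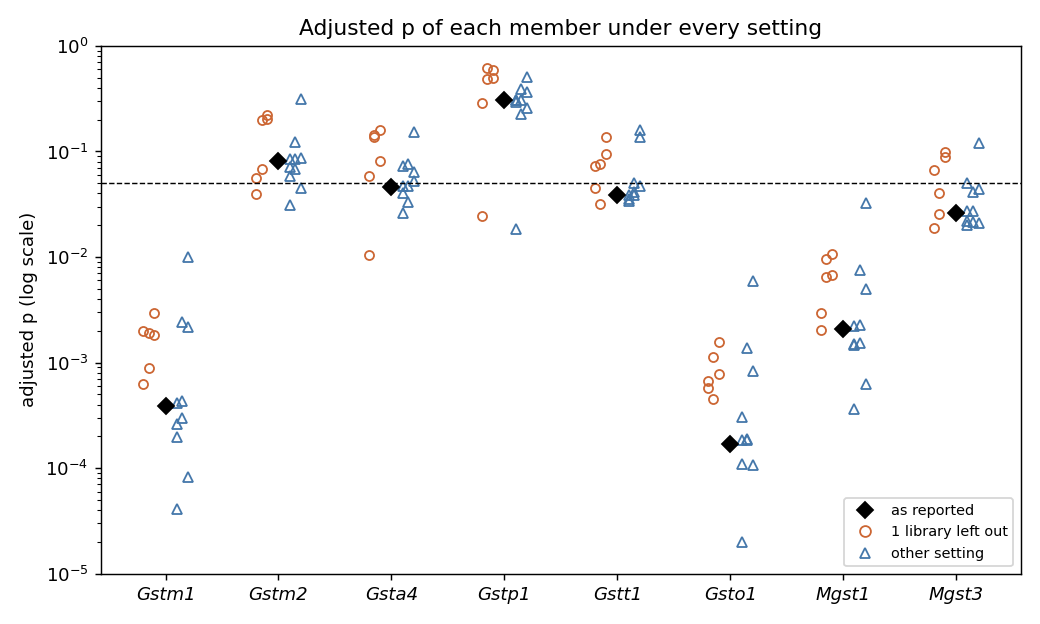
Adjusted p from limma (log scale) for each tested member as reported (black diamonds), with 1 library left out (orange circles) and in the other settings (blue triangles); the dashed line is the threshold of 0.05. All points of Gstm1, Gsto1 and Mgst1 lie below the line, while those of Gsta4, Gstt1 and Mgst3 lie on both sides.

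Several members lie in clusters of related genes. In RefSeq coordinates on GRCm38.p6, the build that mm10 is based on, counted from 1, Gstm2 lies on chromosome 3 from 107981702 to 107986420 and Gstm1 from 108012250 to 108017973, with Gstm3, Gstm4, Gstm5, Gstm6 and Gstm7 within 200 kb. Gstp1 lies on chromosome 19 from 4035411 to 4037912 beside Gstp2 and Gstp3, and Gsto1 on the same chromosome from 47854973 to 47864790 beside Gsto2. Gstt1 lies on chromosome 10 from 75783813 to 75798584 beside Gstt2, Gstt3 and Gstt4, and Gsta4 on chromosome 9 from 78191966 to 78209349 beside Gsta1 and Gsta2. Mgst1 lies on chromosome 6 from 138140527 to 138156755, Gstk1 on chromosome 6 from 42245935 to 42250441, and Mgst3 on chromosome 1 from 167371966 to 167393841. By their spans, no other RefSeq gene overlaps any of the 9 members.

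Near-identical relatives make some of these levels uncertain. Of the 50-base stretches in annotated Gstp1 transcripts (GENCODE M21), 33.7% also occur in transcripts of other genes, mainly Gstp2. The share was 18.9% for Gstm1 and 5.65% for Gstm2, mostly with pseudogenes and, for Gstm1, Gstm3. It was 0 for Gsta4, Gstt1, Gsto1, Mgst1 and Mgst3. How reads with several matches were counted is not given in the sources used here.

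The promoters of the 3 members called in every setting are shown to compare genes that rose (Gstm1, Mgst1) with the one that fell (Gsto1). Each sequence is the 250 bases before a RefSeq start (for Gstm1 and Mgst1 the outer of 2 starts in the table), written 5′ to 3′ on the gene's strand, from the GRCm38.p6 table: chr3:108017974-108018223 on the minus strand for Gstm1, chr6:138140277-138140526 on the plus strand for Mgst1, and chr19:47854723-47854972 on the plus strand for Gsto1. Capitals mark a match to TGACNNNGC, the core of the antioxidant response element bound by NRF2, searched on both strands.
Gstm1: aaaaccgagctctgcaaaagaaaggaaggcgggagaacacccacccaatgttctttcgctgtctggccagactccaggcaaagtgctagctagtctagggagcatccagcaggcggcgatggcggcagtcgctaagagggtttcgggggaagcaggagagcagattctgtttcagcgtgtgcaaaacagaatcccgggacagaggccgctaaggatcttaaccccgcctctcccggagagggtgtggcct
Mgst1: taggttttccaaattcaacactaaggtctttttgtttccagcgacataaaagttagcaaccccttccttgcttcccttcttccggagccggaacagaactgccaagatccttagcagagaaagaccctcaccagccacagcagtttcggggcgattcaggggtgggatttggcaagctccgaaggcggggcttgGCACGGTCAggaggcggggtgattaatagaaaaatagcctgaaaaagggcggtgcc
Gsto1: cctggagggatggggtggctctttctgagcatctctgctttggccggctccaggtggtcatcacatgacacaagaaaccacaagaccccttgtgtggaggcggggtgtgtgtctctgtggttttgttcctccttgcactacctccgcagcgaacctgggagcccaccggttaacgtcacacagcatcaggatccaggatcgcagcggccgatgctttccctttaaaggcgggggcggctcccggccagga
The Mgst1 sequence holds 1 match, from base −56 to base −48 before the start, which reads TGACCGTGC on the opposite strand and does not overlap the AP-1 letters TGACTCA or TGAGTCA. In windows of 300 bases (250 before to 50 after the start), 8 of the 9 members (all but Gsta4) had an entry, and Mgst1 was the 1 member with a match. Over all genes with such a window 14.0% held a match, and over the 8152 tested genes with one 16.8% did. The Gstp1 window holds the AP-1 letters TGAGTCA followed by GC, which the searched pattern does not match. A match is a description of the letters and no evidence of binding. Response elements farther from the start lie outside these windows, and elements with other letters are missed by the search.

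Genes of a mixed list of relatives beyond the 9 members were called about as often as all tested genes. A list of 27 further genes of cytosolic, membrane-bound and transferase-like proteins had 25 in the table, of which 12 were tested: 2 rose, 2 fell and 8 were not called, with a median log2 change of 0.024. The 33.3% called is near the 31.8% over all tested genes. Of its tested genes named Gst or Mgst, Gstm5 and Gstt3 rose, Gstcd fell, and Gstz1, Gstp2 and Mgst2 were not called. Gstm5, another mu-class gene, rose 1.27-fold, from 34.96 ± 0.896 to 44.4 ± 3.68 FPKM (SD, n = 3, limma adjusted p = 0.00118), although it overlaps the gene 4933431E20Rik, so that reads of these genes may be confused. Gstt3, the neighbour of Gstt1, rose 1.16-fold (7.17 ± 0.511 to 8.28 ± 0.316 FPKM, adjusted p = 0.0283). Its call was lost without alone library 2, alone library 3, co-culture library 2 or co-culture library 3 (adjusted p from 0.0676 to 0.102). Gstcd, which encodes a protein with a transferase-like domain and overlaps Ints12, fell 1.33-fold (5.94 ± 0.127 to 4.45 ± 0.457 FPKM, adjusted p = 0.00223), and Ptges2, a prostaglandin synthase, fell 1.18-fold (adjusted p = 0.00249).

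Within the clusters, tested genes next to a member were few. Of the mu cluster Gstm1, Gstm2 and Gstm5 were tested, while Gstm3, Gstm4 and Gstm6 had 6 reads or fewer in each group and Gstm7 had 66 reads alone and 102 in co-culture. Gsto2, beside Gsto1, had 66 reads alone and 90 in co-culture (0.338 and 0.504 FPKM), below the filter, and was not tested. Gstp2 had means of 2.16 (alone) and 1.62 FPKM (co-culture) and was not called (limma adjusted p = 0.359).

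**Figure D3:**
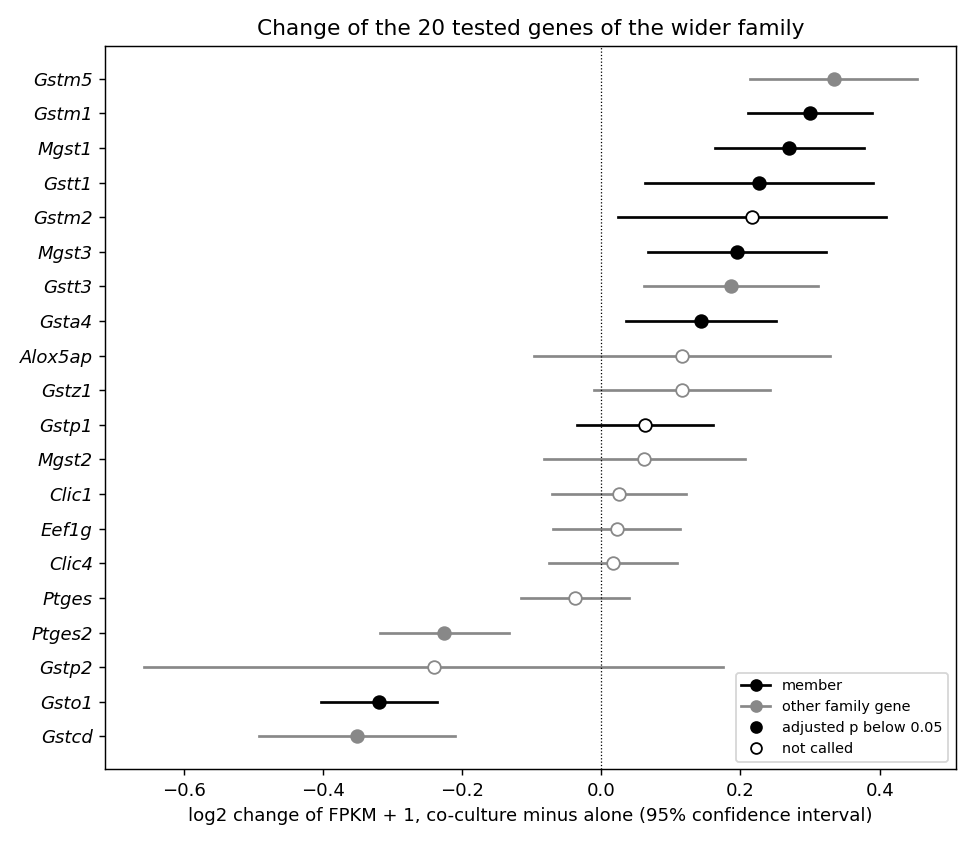
Log2 change of FPKM + 1 (co-culture minus alone) with its 95% confidence interval for the 8 tested members (black) and the 12 tested relatives (grey); filled circles have an adjusted p below 0.05. Gstm5 and Gstm1 are at the top, and Gsto1 and Gstcd at the bottom.

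Genes that supply glutathione were mostly lower in co-culture. Of 6 tested genes of glutathione synthesis and cystine uptake 4 fell (against 17.9% of all tested genes) and 0 rose, and their median log2 change was −0.27. Cth, which makes cysteine from cystathionine, fell 2.34-fold, from 44.8 ± 2.35 to 19.2 ± 0.471 FPKM (SD, n = 3, limma adjusted p = 5.85e-08). The cystine transporter genes Slc7a11 (2.46-fold lower) and Slc3a2 (1.16-fold lower) fell too, as did Gclc, the catalytic subunit of the rate-limiting ligase, from 25.1 ± 0.728 to 19.9 ± 1.05 FPKM (1.26-fold lower, adjusted p = 0.000556). Gclm, the regulatory subunit, and Gss were at 8.43 and 6.53 FPKM alone and 8.04 and 6.31 in co-culture, and were not called. Both tested genes of glutathione breakdown, Chac1 (1.38-fold lower) and Chac2 (1.36-fold lower), fell, against 17.9% of all tested genes.

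Genes that use or regenerate glutathione held calls in both directions. Of 8 tested genes of glutathione reduction and NADPH supply 1 rose (Idh1, 1.14-fold) and 2 fell (G6pdx, 1.22-fold, and Me1, 1.18-fold), 37.5% against 31.8% of all tested genes. The reductase gene Gsr, with 11.5 FPKM alone and 12.1 in co-culture, was not called (limma adjusted p = 0.282). Of 5 tested peroxidases Gpx1 (1.10-fold) and Gpx8 (1.11-fold) rose and Prdx6 fell (1.16-fold), 60.0% against 31.8% of all tested genes. Of 7 tested genes in the list of glutaredoxins and glyoxalases Glrx rose (1.20-fold) and 4 fell. Among the 4 were Esd (1.31-fold), an esterase gene counted with them, Glrx3 (1.09-fold) and the glyoxalase gene Hagh (1.12-fold). The other glyoxalase gene, Glo1, was not called. The share of the 7 genes called was 71.4%, against 31.8% of all tested genes. The calls were lost for Gpx1 without alone library 2 or 3 or co-culture library 1 or 3 (adjusted p 0.0530 to 0.0622), and for Gpx8 without alone library 2 or 3 or co-culture library 2 or 3 (0.0610 to 0.170). They were lost for Glrx3 without alone library 1 or 2 or co-culture library 1 or 2 (0.0512 to 0.0925), and for Hagh without any library but alone library 3 (0.0654 to 0.0944).

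Of 9 tested genes for the export of conjugates and their conversion to mercapturates 2 rose and 2 fell, 44.4% against 31.8% of all tested genes. Abcc1, the main exporter of glutathione conjugates in many cells, fell 1.31-fold, from 19.6 ± 0.561 to 15.01 ± 0.229 FPKM (SD, n = 3, limma adjusted p = 9.38e-05). Anpep, an aminopeptidase, rose 1.22-fold and the transporter gene Abcg2 rose 1.14-fold. In the list of aldehyde and quinone detoxification 4 of 13 tested genes rose (30.8%, against 13.9% of all tested genes) and 1 fell (median log2 change 0.068). Aldh1a1 (1.37-fold), Aldh9a1 (1.18-fold), the quinone reductase gene Nqo1 (1.19-fold) and Akr1b8 (1.13-fold) were the 4 that rose. The calls were lost for Abcg2 without alone library 2 or 3 or co-culture library 1 or 3 (adjusted p 0.0503 to 0.105), for Nqo1 without co-culture library 3 (0.0540), and for Akr1b8 without alone library 3 (0.0524) or co-culture library 3 (0.0602).

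The gene of NRF2, its relative Nfe2l1 and the small Maf partners were lower, while its regulators Keap1 and Sqstm1 were not called. Of 8 tested genes in the list of NRF2, its partners and its regulators, 5 fell (62.5%, against 17.9% of all tested genes). In that list 1 rose, and the median log2 change was −0.26. The 5 that fell were Nfe2l2, Nfe2l1, Maff, Mafg and Mafk. Nfe2l2 itself fell 1.51-fold, from 89.3 ± 1.30 to 59.0 ± 0.234 FPKM (SD, n = 3, limma adjusted p = 1.07e-06). Nfe2l1 (1.20-fold lower) and the small Maf partner Mafk (1.60-fold lower) fell, and Bach1, a repressor of the same elements, rose 1.27-fold, from 12.2 ± 0.940 to 15.5 ± 0.654 FPKM (adjusted p = 0.00188). Keap1, which targets NRF2 for degradation, had means of 10.4 (alone) and 11.2 FPKM (co-culture) and was not called (adjusted p = 0.182). Among 6 other NRF2 targets Srxn1 (1.36-fold lower) and Txnrd1 (1.17-fold lower) fell (33.3%, against 17.9% of all tested genes) and 0 rose. Hmox1 was at 159 and 163 FPKM and was not called. The list of 6 leaves out targets counted in the lists above, such as Nqo1, which rose, and Gclc, which fell. Counted together without repeats, the lists beside the 9 members held 76 tested genes, of which 13 rose (17.1%, against 13.9% of all tested genes) and 25 fell (32.9%, against 17.9%).

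**Figure D4:**
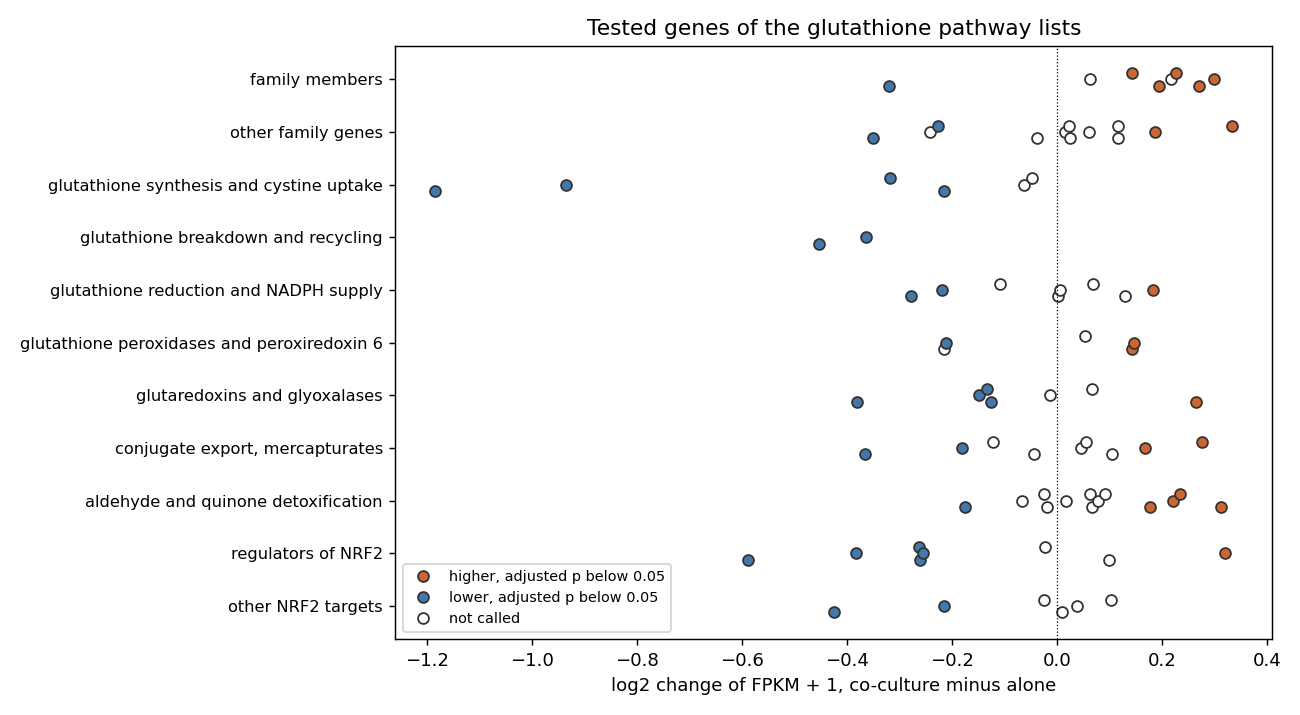
Log2 change of FPKM + 1 (co-culture minus alone) of each tested gene, by list; orange and blue circles are genes called higher and lower at an adjusted p below 0.05, and open circles were not called. The family members lie mostly to the right of 0. Genes of glutathione synthesis lie mostly to the left, as do those of the list labelled regulators of NRF2, which includes NRF2 and its partners.

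Among tested genes outside these lists, with predicted and clone-based symbols left out, Chuk, Pkd2, Rpe and Chordc1 followed Gsto1 most closely. Their Pearson correlations with Gsto1 over the 6 libraries were 0.998, 0.997, 0.997 and 0.996 on the log2(FPKM + 1) scale. The 6 libraries are 2 groups that differ, so such values are a description of a shared difference between groups. Chuk, which encodes a kinase of the NF-kB pathway, had means of 25.2 ± 0.655 (alone) and 21.7 ± 0.134 FPKM (co-culture), and Rpe, an enzyme of the pentose phosphate pathway, of 18.2 ± 0.673 and 14.7 ± 0.432 FPKM (SD, n = 3).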

How the data were processed

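The 6 RNA-seq libraries of 3T3-L1 cells, 3 alone and 3 in co-culture, were all used. The values are FPKM as deposited by the authors, 1 column per library; per the submitters' processing notes, HISAT2, HTSeq, fastp and mm10 were involved (versions and settings not given). The annotation, the strand setting and the treatment of human reads are likewise unstated. Values resolved to whole reads for all 21436 genes (tolerance 1e-06 on ratios), scaled by the 1545 bp of the mitochondrial gene COX1, which gave totals of 29603755 to 38357563 reads.

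limma 3.58.1 in R 4.3.3 (eBayes with a trend) was fitted to log2(FPKM + 1), co-culture minus alone, for 10055 genes whose mean reached 1 FPKM, with Benjamini-Hochberg adjustment over all of them. The fit was tested on simulated data. Fold changes are ratios of mean FPKM; log2 changes on the log2(FPKM + 1) scale understate those of low genes. Ratios of members were compared with exact permutation tests (SciPy 1.17.1). Named were all members, up to 4 called genes of each list by smallest p, and 4 genes by correlation. These 4 had the highest correlation with the called member of smallest p, with predicted and clone-based symbols left out. Other genes were named as examples after their values were seen. A gene of 1 of the lists is left out of the text. The members and lists were chosen with earlier results of these data known. Alternatives covered pseudocounts, filters, scalings, eBayes without a trend, a replicate block, limma-voom on recovered reads, an adjusted p below 0.01 and each library left out. Promoter sequences and coordinates are from RefSeq on GRCm38.p6.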

Additional observations from a re-analysis of the deposited data

How the results depend on the processing

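The lower call on Gsto1 was made in every setting run, and the number of members called higher (5) was 2 with no filter on low values, where 21436 genes were tested, 3 with limma-voom on the recovered reads, 2 at an adjusted p below 0.01 and 2 to 5 with each library left out in turn (1 lower throughout). With the replicate block it was 3, because Gsta4 (adjusted p = 0.0637) and Gstt1 (0.05003) were no longer called. These counts include members gained as well as lost. The 3 with limma-voom were Gstm1, Mgst1 and Gstm2, and Gstm2 was also called when each library was scaled to the same sum. Without alone library 1 the 5 called were Gstm1, Mgst1, Mgst3, Gstm2 and Gstp1, while Gsta4 and Gstt1 were lost. Whether equal replicate numbers mark a pairing is not known. Deviations of same-numbered libraries from their group means correlated by −0.0444, 0.109 and −0.0829, and only alone replicate 2 correlated best with its own number. With 3 libraries per group, such correlations are too few to settle it. Of the other glutathione pathway genes, 13 were called higher, against 6 with no filter, 7 at an adjusted p below 0.01 and 7 to 15 with a library left out, 7 being without co-culture replicate 3, while the 25 lower ones were 19 to 23 with a library left out. Over all genes, 1402 higher and 1799 lower calls were 635 and 1073 at an adjusted p below 0.01, and 925 to 1419 and 1374 to 1753 with a library left out, 925 being without co-culture replicate 3. They were 937 and 1251 with no filter, and 1658 and 1595 with quantile normalization, where the higher calls outnumbered the lower. The log2 differences of the ratios were 0.083 for Gstm1 to Gstm2 (0.028 to 0.17 with a library left out), 0.066 for Mgst1 to Mgst3 (0.00090 to 0.10) and −0.39 for Gsto1 to Gstp1 (−0.44 to −0.33). For the 34 named pathway genes, 491 of 541 recomputed values stayed on the same side of the threshold, 50 lost the call and 0 reversed. No scaling moved the median of all genes by more than 0.017 on the log2 scale. Depth limits Gstk1, Gstm7 and Gsto2, with 102 reads or fewer in each group.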
